A study of Homo sapiens with 11 samples.

Results

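The lysosome and autophagy genes described here are 41 of the 20037 protein-coding genes in the RefSeq table for GRCh38. They were chosen by name as known targets of MITF and its relatives, by a rule that uses no measured value but with earlier results of these data known. They comprise 6 proteins of the lysosomal membrane, 8 proteases, 10 other hydrolases or their cofactors, 5 genes of the membrane sector (V0) of the proton pump, 7 genes of its catalytic sector (V1) and 5 autophagy genes. All 41 were found in the table, and each was given a window of its annotated extent with 5 kb on either side. No member window overlapped another, but 29 held another protein-coding gene and 23 genes had an end within 1 kb of a neighbour's end, so a peak there cannot be assigned to the member alone.

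The data were ChIP-seq peak lists from the uveal melanoma cell line 92-1, a line grown from a melanoma of the eye. The cells had received DMSO, the solvent control, or FHT-1015 for 4 h. FHT-1015 inhibits the ATPases SMARCA4 and SMARCA2, the motors of the BAF chromatin remodelling complexes, and its dose is not given in the sources used here. Each condition had 1 library for each of 5 antibodies: against the transcription factors MITF, SOX10 and TFAP2A, against SMARCA4 (also called BRG1) and against H3K27ac, a histone mark of active promoters and enhancers. The input library is not analysed here. Every comparison of DMSO with FHT-1015 therefore rests on 1 library against 1, all from 1 cell line, with no replicate check and no p-value between conditions.

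The lysosome degrades proteins, lipids and sugars in an acid interior. The V-ATPase, a rotary pump with a membrane sector (V0) and an ATP-splitting sector (V1), brings in the protons, and most of the hydrolases work only at that acid pH. Autophagy delivers cytoplasm to the lysosome in vesicles that carry the lipid-bound proteins LC3 and GABARAP. MITF, the master regulator of pigment cells, belongs with TFEB, TFE3 and TFEC to a family of basic helix-loop-helix leucine zipper factors. The family binds CACGTG and related E-boxes, and many lysosomal genes carry such sites close to their start, where they are called CLEAR elements. Whether the MITF antibody also binds its relatives was not tested here, so each MITF value below is that of the antibody. SOX10 and TFAP2A are lineage factors of the neural crest and its pigment cells.

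Promoter sequence was at hand for 27 of the 41 genes, from RefSeq on GRCh38.p14, each running from 250 bases before the annotated start to 50 bases after it. The 7 below are shown because MITF peaks of very different strength lie over them and because they carry from 0 to 6 copies of the E-box. Capitals mark CACGTG and, where present, TCATGTG or its reverse complement CACATGA, the variant E-box known from promoters of pigment genes. The sequences read 5′ to 3′ on the strand of the gene. They come from chr13:113296989-113297288 on the plus strand (LAMP1), chr6:31862772-31863071 on the minus strand (NEU1), chr16:1474979-1475278 on the minus strand (CLCN7), chr19:7522374-7522673 on the plus strand (MCOLN1), chr1:43974710-43975009 on the plus strand (ATP6V0B), chr17:80101331-80101630 on the plus strand (GAA) and chr11:6619373-6619672 on the minus strand (TPP1).
LAMP1: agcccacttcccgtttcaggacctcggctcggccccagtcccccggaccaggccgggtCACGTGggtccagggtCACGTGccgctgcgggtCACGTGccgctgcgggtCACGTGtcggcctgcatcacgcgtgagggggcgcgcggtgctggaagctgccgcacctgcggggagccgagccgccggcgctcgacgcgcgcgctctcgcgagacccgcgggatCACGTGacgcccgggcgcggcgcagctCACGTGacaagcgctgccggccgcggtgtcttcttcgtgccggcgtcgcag
NEU1: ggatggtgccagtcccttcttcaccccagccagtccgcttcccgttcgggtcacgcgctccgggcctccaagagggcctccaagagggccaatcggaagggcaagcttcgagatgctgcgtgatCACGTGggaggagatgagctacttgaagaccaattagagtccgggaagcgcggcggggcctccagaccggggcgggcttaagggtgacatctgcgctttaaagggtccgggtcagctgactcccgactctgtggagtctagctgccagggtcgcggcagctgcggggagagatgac
CLCN7: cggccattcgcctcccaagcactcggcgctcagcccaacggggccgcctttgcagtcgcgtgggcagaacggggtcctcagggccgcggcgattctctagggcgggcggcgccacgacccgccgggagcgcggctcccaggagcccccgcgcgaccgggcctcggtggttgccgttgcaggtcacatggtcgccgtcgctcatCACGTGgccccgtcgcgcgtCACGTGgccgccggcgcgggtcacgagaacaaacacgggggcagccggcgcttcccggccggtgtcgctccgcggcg
MCOLN1: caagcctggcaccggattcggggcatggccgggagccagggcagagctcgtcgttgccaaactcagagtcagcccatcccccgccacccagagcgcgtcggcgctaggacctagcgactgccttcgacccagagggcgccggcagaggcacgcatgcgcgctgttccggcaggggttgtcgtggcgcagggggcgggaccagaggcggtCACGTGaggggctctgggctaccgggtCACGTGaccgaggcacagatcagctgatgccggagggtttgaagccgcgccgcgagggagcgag
ATP6V0B: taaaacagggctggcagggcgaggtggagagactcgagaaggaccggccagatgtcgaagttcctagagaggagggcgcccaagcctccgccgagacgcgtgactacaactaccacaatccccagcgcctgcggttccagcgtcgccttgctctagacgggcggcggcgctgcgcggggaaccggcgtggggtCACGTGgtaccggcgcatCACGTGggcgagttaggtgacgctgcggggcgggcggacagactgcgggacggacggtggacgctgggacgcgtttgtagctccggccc
GAA: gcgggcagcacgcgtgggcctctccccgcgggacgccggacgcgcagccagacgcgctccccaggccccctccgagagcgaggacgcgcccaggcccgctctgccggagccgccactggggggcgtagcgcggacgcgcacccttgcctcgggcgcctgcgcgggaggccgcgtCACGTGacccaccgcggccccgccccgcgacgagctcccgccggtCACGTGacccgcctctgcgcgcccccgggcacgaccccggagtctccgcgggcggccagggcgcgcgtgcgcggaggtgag
TPP1: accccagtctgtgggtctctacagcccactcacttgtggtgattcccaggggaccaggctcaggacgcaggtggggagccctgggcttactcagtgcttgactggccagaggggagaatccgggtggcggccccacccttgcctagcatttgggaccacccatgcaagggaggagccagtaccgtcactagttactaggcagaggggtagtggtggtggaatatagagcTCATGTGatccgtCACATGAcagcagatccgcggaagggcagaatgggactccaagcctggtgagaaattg

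LAMP1, a heavily glycosylated protein that lines the lysosomal membrane, had 6 copies of CACGTG in this stretch, starting at −192, −176, −159, −142, −28 and −1 from its start. CLCN7 (the lysosomal chloride-proton exchanger), MCOLN1 (the lysosomal calcium channel TRPML1), ATP6V0B and GAA (acid alpha-glucosidase) had 2 each. NEU1, a sialidase, had 1. TPP1, a tripeptidyl peptidase, had no CACGTG but 2 copies of the variant E-box.

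CACGTG was found in the promoter stretch of 11 of the 27 genes, or 40.7% (Wilson 95% interval 24.5 to 59.3, counting error only), against 10.9% of 15843 protein-coding genes with a promoter entry. The 11 genes were ATP6V0B, ATP6V0D1, ATP6V1G1, CLCN7, CTSA, CTSD, CTSF, GAA, LAMP1, MCOLN1 and NEU1. In each of them at least 1 copy was preceded by T as TCACGTG on either strand, a form found in 5.83% of all genes and contained in the count above. TCATGTG on either strand was found in 4 of the 27 (ATP6V0C, CTSA, SCARB2 and TPP1), or 14.8%, against 3.10%. The AP-2 palindrome GCCNNNGGC was found in 12 of the 27, or 44.4%, against 33.6%, and its interval of 27.6 to 62.7 includes the share of all genes. CLEAR elements were part of the reason such genes are known as targets, so the E-box share is a description of the choice of genes as well as of the promoters.

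A MITF peak lay over the promoter stretch of all 11 genes with CACGTG, in DMSO and in FHT-1015. The promoter stretch lay under a MITF peak in 70.8% of all genes with CACGTG in DMSO and 68.0% in FHT-1015. The nearest copy was a median of 11.5 bases from the summit, the highest point of the peak, in the 11 genes (9 of 11 within 50 bases), against 28.5 bases in all genes with such a peak (69.6% within 50 bases). At ATP6V0B, summit and E-box were 0.5 bases apart in DMSO. The promoters of the 16 other genes with sequence held no CACGTG, and all 16 still had a MITF peak over them in DMSO and 15 in FHT-1015, against 32.7% and 31.5% of all genes whose promoter lacks the E-box.

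In DMSO, MITF sat at the ends of nearly all of these genes, and its peaks there were among the strongest in the genome. A boundary peak, meaning one within 1 kb of either annotated end, was present at 39 of the 41 genes in DMSO, against 47.3% of all protein-coding genes, and at 38 in FHT-1015, against 45.3%. The peak ranked in the strongest 10% of the DMSO list at 33 of the 41 genes, or 80.5% (Wilson interval 66.0 to 89.8), against 8.35% of all genes. It ranked in the strongest 1% at 11 (NEU1, ASAH1, ATP6V1H, ATP6V1C1, TPP1, LAMP1, HEXA, CLCN7, GABARAP, NAGLU and ATP6V1E1), against 0.679%. Where the strand was at hand, the strongest boundary peak lay nearer the start than the other end in 24 of 25 genes. The share of all genes was not counted. Within 1 kb of any RefSeq start, a MITF peak was present at 27 of 27 genes with promoter sequence. That held in both conditions, against 47.5% of all genes with such sequence in DMSO and 45.1% in FHT-1015.

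The other antibodies placed the genes less far up their lists. H3K27ac had a boundary peak in its strongest 10% at 20 of the 41 genes, against 22.1% of all genes. For SMARCA4 the count was 12, against 9.15%, for TFAP2A 14, against 19.3%, and for SOX10 12, against 6.65%. None of the 41 reached the strongest 1% for H3K27ac (2.03% of all genes did), SMARCA4 (0.309%) or SOX10 (0.215%), and 3 did so for TFAP2A (2.33%). For the strongest 10% the shares of all 5 antibodies were above those of all genes, and MITF had the widest gap.

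**Figure D1:**
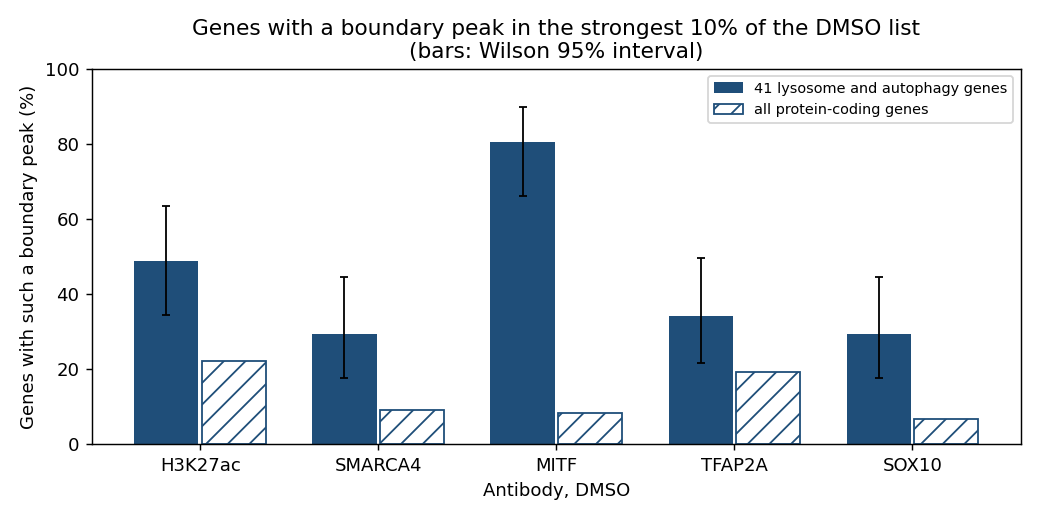
Share of genes with a boundary peak in the strongest 10% of each DMSO list (vertical axis, percent) for the 5 antibodies, with the 41 lysosome and autophagy genes as filled bars with Wilson 95% intervals and all protein-coding genes as hatched bars. MITF reaches 80.5% of the 41 genes against 8.35% of all genes, and the other 4 antibodies lie between 29.3% and 48.8% of the 41.

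Reads were compared between conditions at the strongest boundary peak of each gene. The pile-up of reads at each summit was recovered from the deposited fold and p-value, and the FHT-1015 reads were divided by the ratio of the libraries' depths, 0.854 for MITF and 1.145 for SOX10. A ratio of 1 thus means equal reads at equal depth, and the intervals in brackets cover counting error only. The FHT-1015 reads are those of the strongest peak that overlaps the DMSO peak, and the summits lay over 200 bases apart at 1 of 38 genes for MITF, 3 of 26 for SOX10, 7 of 39 for TFAP2A, 9 of 36 for SMARCA4 and 3 of 39 for H3K27ac. Without those genes the median ratios were 1.05 for MITF, 0.504 for SOX10, 1.03 for TFAP2A, 1.49 for SMARCA4 and 1.34 for H3K27ac. This comparison was added after the lists had been seen, and it does not adjust for how well each immunoprecipitation worked.

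MITF reads at the ends of these genes were about as high after FHT-1015 as in DMSO. Where the peak was kept, the ratio had a median of 1.05 over 38 genes, against 1.02 over 6831 genes. It was above 1 in 25 of the 38, against 3603 of the 6831. A lost peak has no ratio, and the strongest peak was lost at 1 of 39 genes, against 27.9% of all genes with one. Median ratios over all genes, here and below, likewise cover only genes with a ratio. Among boundary peaks of the strongest 10% the median was 1.05 over the 33 genes and 0.948 over 1635 genes. The peak was lost, or its reads were at or below 1/1.5 of DMSO, at 3 of 39 genes (CTSS, NPC1 and CTSZ), against 37.9% of all genes. None of the 33 genes in the strongest 10% met that condition, against 23.5%. The 2 sets were not of like strength within that 10%. Of the 33 genes, 11 ranked in the strongest 1%, against 136 of the 1674 genes. None of the 39 reached a ratio of 1.5, against 6.99%. The interval of the ratio lay below 1 at 3 of 38 genes (ASAH1, CTSF and CTSZ), against 9.93% of all genes with a ratio, and above 1 at 3 (ATP6V0E1, ATP6V1B2 and NAGLU), against 5.01%.

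SOX10 reads at the same ends were lower after FHT-1015. The strongest SOX10 boundary peak was lost at 12 of 39 genes, against 43.9% of all genes. Where it was kept and the reads could be recovered, the ratio ranged from 0.327 to 0.806 with a median of 0.516 over 26 genes, against 0.546 over all genes. The interval lay below 1 at 22 of the 26 genes, against 63.5% of all genes with a ratio, and included 1 at ATP6V0D1, ATP6V1A, ATP6V1E1 and GLA. It lay above 1 at none, against 0.0282%. Lost peaks and ratios at or below 1/1.5 together took in 33 of 38 genes, against 88.5%, so the SOX10 share here was close to that of all genes. Boundary SOX10 peaks were present at 39 genes in DMSO, against 63.5%, and at 29 in FHT-1015, against 40.7%. Within 1 kb of any RefSeq start, SOX10 was present at 27 of 27 genes in DMSO, against 65.5%. In FHT-1015 it was present at 20 of these, against 42.2%.

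**Figure D2:**
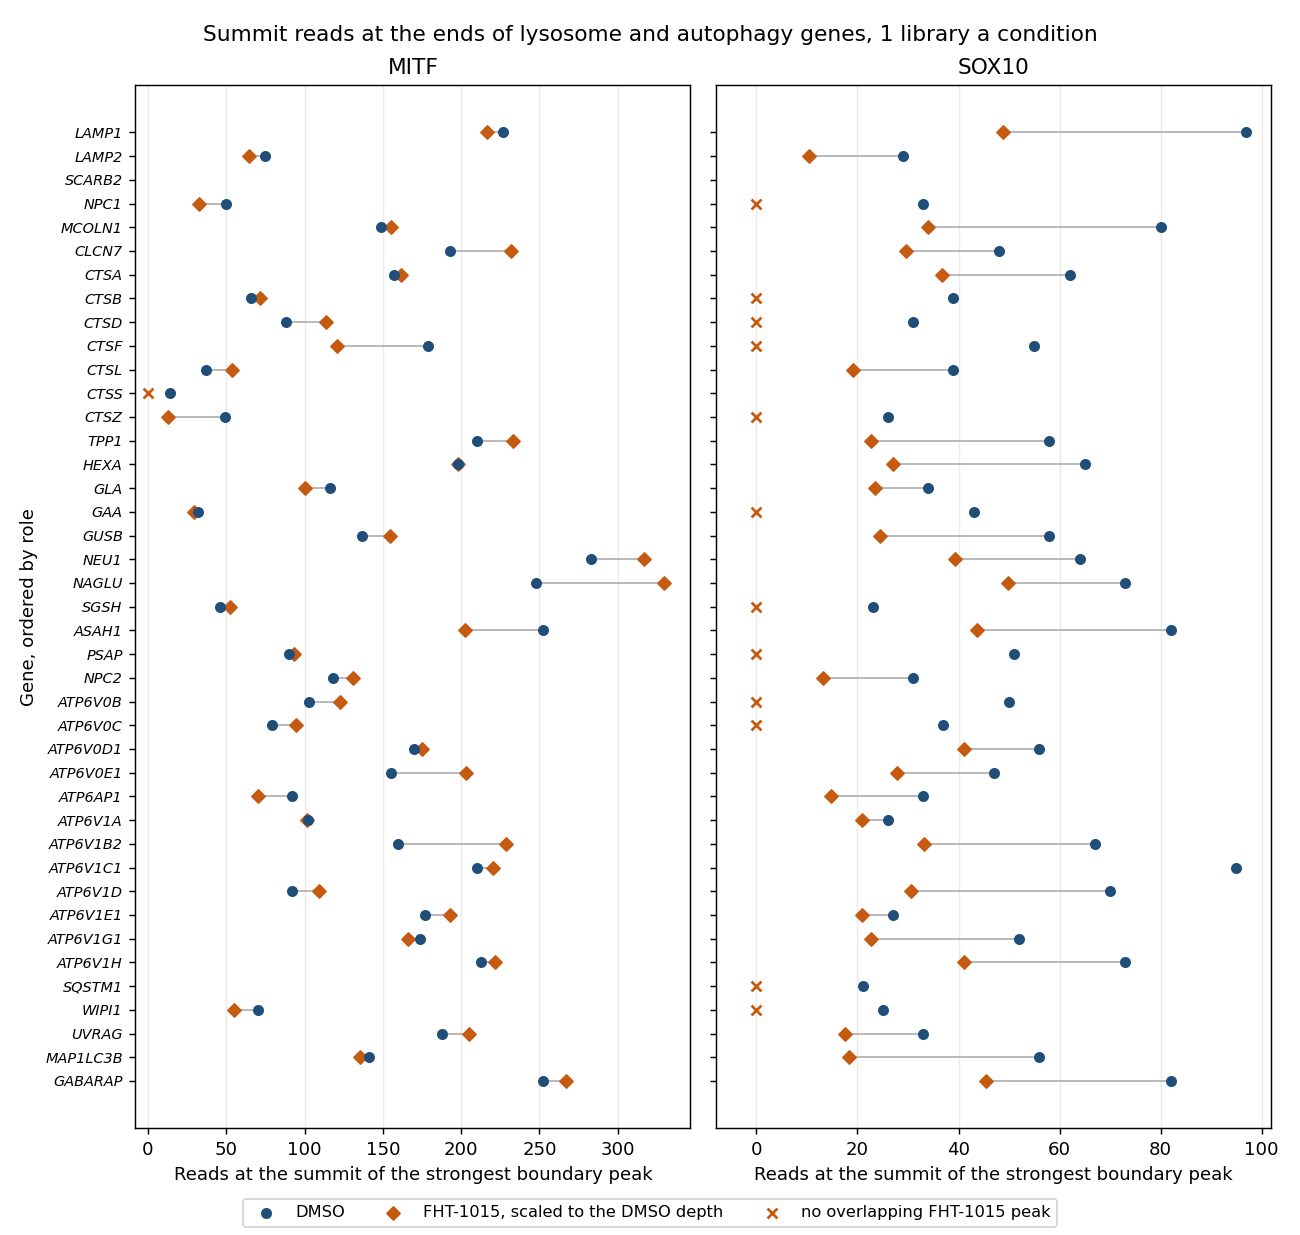
Reads at the summit of the strongest boundary peak (horizontal axes) for each of the 41 genes, for MITF on the left and SOX10 on the right, with DMSO as circles, FHT-1015 scaled to the DMSO depth as diamonds, and crosses for DMSO peaks with no overlapping FHT-1015 peak. MITF pairs lie on both sides of each other with 1 cross (CTSS), and all SOX10 diamonds lie left of their circles and 12 genes carry a cross. Genes with no boundary peak have no symbol, and ATP6V1C1 has no SOX10 diamond because its FHT-1015 reads could not be recovered.

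Among the membrane proteins, LAMP1 had 227 MITF reads in DMSO and 185 in FHT-1015, a ratio of 0.953 (0.780 to 1.16). Its SOX10 peak had 97 and 56 reads, a ratio of 0.504 (0.356 to 0.707). The MITF interval includes 1 and the SOX10 interval does not. LAMP2, the partner of LAMP1 on the X chromosome, had 75 and 55 MITF reads (ratio 0.857, 0.594 to 1.23) and 29 and 12 SOX10 reads (ratio 0.361, 0.168 to 0.730). MCOLN1 had 149 and 133 MITF reads (ratio 1.04, 0.820 to 1.33), and its SOX10 reads went from 80 to 39 (ratio 0.425, 0.282 to 0.631). In all 3 genes the SOX10 ratio lay below the MITF ratio.

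CLCN7 had 193 MITF reads at its start in DMSO and 198 in FHT-1015, a ratio of 1.20 (0.979 to 1.47). A second MITF peak inside the same gene, at chr16:1471596-1472510, was almost as strong in DMSO, with 215 reads, and had 58 in FHT-1015, a ratio of 0.315 (0.232 to 0.423). The start and the inner site of CLCN7 thus parted by more than their counting error. SOX10 at the inner site went from 101 to 35 reads (ratio 0.302, 0.200 to 0.448) and TFAP2A from 207 to 101 (ratio 0.509, 0.397 to 0.649). SMARCA4 at the inner site had 64 and 51 reads, a ratio of 0.868 with an interval of 0.589 to 1.27 that includes 1.

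NPC1, the cholesterol exporter whose loss causes Niemann-Pick disease type C, was among the weakest. Its MITF boundary peak had 50 and 28 reads (ratio 0.655, 0.397 to 1.06), and both of its SOX10 boundary peaks in DMSO had no counterpart. Its inner MITF peak at chr18:23573546-23574646 went from 116 to 29 reads (ratio 0.292, 0.188 to 0.442). SCARB2, the receptor that carries glucocerebrosidase to the lysosome, had no MITF boundary peak in either condition. Its annotated extent runs 20.7 kb upstream of another RefSeq start, and a weak MITF peak lay at that start, with 16 reads in DMSO and 14 in FHT-1015. A stronger one lay further inside the gene, with 86 and 54 reads (ratio 0.734, 0.512 to 1.04).

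Of the 6 roles, the proteases had the lowest median −log10 p of the strongest MITF boundary peak, 76.6, and the widest range of ratios, 0.262 to 1.45. TPP1 had the most reads of them, with 210 and 199 reads and a ratio of 1.11 (0.908 to 1.35), followed by CTSF, a cysteine cathepsin, with 179 and 103 (ratio 0.673, 0.523 to 0.862). CTSF was the gene of the strongest 10% with the lowest ratio at its strongest boundary peak, and its interval excludes 1. CTSA, a carboxypeptidase that also shields NEU1, had 157 and 138 reads (ratio 1.03, 0.812 to 1.30). CTSD, the main aspartic protease of lysosomes, had 88 and 97 (ratio 1.29, 0.956 to 1.74). CTSB had 66 and 61 (ratio 1.08, 0.750 to 1.55) and CTSL, another cysteine cathepsin, 37 and 46 (ratio 1.45, 0.922 to 2.30).

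CTSZ went the other way. Its MITF boundary peak had 49 reads in DMSO and 11 in FHT-1015 (ratio 0.262, 0.123 to 0.512). A MITF peak in its flank, at chr20:59010608-59011208, went from 162 to 24 reads (ratio 0.173, 0.108 to 0.267), and an inner one of 60 reads was lost. All 9 SOX10 peaks in its window were lost, and H3K27ac at its end went from 92 to 66 reads (ratio 0.683, 0.490 to 0.947), the lowest of the 39 genes with such a ratio. CTSS, a cathepsin known from antigen-presenting cells, had the weakest MITF boundary peak, of 14 reads, and it was the 1 member of 39 whose strongest MITF boundary peak was lost, against 27.9% of all genes. It had no boundary peak of the other 4 antibodies in either condition. The other 7 proteases, CTSZ included, kept their strongest MITF boundary peak.

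SOX10 boundary peaks of CTSB, CTSD, CTSF and CTSZ were all lost, and those of CTSA (62 and 42 reads), CTSL (39 and 22) and TPP1 (58 and 26) were kept at fewer reads. At the level of all SOX10 peaks in the windows, the proteases kept 18.5% of 27 peaks, the lowest share of the 6 roles and close to the 21.3% of all genes.

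The hydrolases and their cofactors included the members with the most MITF reads beside GABARAP. NEU1 had 283 reads in DMSO and 271 in FHT-1015 (ratio 1.12, 0.944 to 1.33), the most reads of any member in DMSO. Its end is shared with a neighbouring gene, SLC44A4. ASAH1, acid ceramidase, had 252 and 173 (ratio 0.803, 0.657 to 0.978), and NAGLU, which trims heparan sulfate, had 248 and 283 (ratio 1.33, 1.12 to 1.59). The NAGLU interval lies above 1 and the ASAH1 interval below it, but the summits of ASAH1 in DMSO and FHT-1015 were 786 bases apart. HEXA, a subunit of beta-hexosaminidase, had 198 and 170 reads (ratio 1.00, 0.813 to 1.24).

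GUSB, beta-glucuronidase, had 137 and 132 MITF reads, NPC2, which hands cholesterol to NPC1, had 118 and 112, and GLA, alpha-galactosidase, had 116 and 86. PSAP, the precursor of the saposins, had 90 and 80, and SGSH, a sulfamidase, 46 and 45. GAA had the weakest MITF peak of the role with 32 and 25 reads (ratio 0.913, 0.519 to 1.59), under a promoter with 2 CACGTG. All 10 genes kept their strongest MITF boundary peak, and 7 kept their strongest SOX10 boundary peak. The 3 that lost it were GAA, PSAP and SGSH. At GAA the lost SOX10 peak had 43 reads in DMSO.

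Members of the V0 sector had between 79 and 170 MITF reads in DMSO and those of V1 between 92 and 213, so the ranges overlap. ATP6V0D1, the subunit that links the sectors, had 170 and 150 reads (ratio 1.03, 0.823 to 1.29), ATP6V0E1 155 and 174 (ratio 1.31, 1.05 to 1.64), ATP6V0B 103 and 105 (ratio 1.19, 0.899 to 1.58), and ATP6V0C, the main ring subunit, 79 and 81 (ratio 1.20, 0.868 to 1.66). ATP6AP1, an accessory protein of pump assembly, had 92 and 60 (ratio 0.762, 0.541 to 1.07). The strongest boundary peak of ATP6V0C lay at the far end of the gene, beside its neighbour AMDHD2. At its own start a weaker MITF peak went from 72 to 37 reads (ratio 0.601, 0.393 to 0.905). The V0 windows kept 91.7% of 12 MITF peaks and 8 of 16 SOX10 peaks, both the highest shares of the 6 roles, against 22123 of 53934 MITF peaks and 21.3% of SOX10 peaks at all genes.

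In the V1 sector, ATP6V1H (213 and 190 reads), ATP6V1C1 (210 and 188), ATP6V1E1 (177 and 165) and ATP6V1G1 (174 and 142) had the most MITF reads, with ratios between 0.954 and 1.09. ATP6V1B2, a subunit of the catalytic head, had 160 and 196 (ratio 1.43, 1.16 to 1.78). ATP6V1A, which splits the ATP, had 102 and 87 (ratio 0.997, 0.740 to 1.34), and ATP6V1D, in the central stalk, had 92 and 94 (ratio 1.19, 0.886 to 1.61). All 7 kept a MITF and a SOX10 boundary peak. Inside the genes the picture differed. An inner MITF peak of ATP6V1A went from 89 to 26 reads (ratio 0.342, 0.212 to 0.534) and that of ATP6V1B2 from 92 to 32 (ratio 0.407, 0.263 to 0.614), while the strongest peaks at their ends had the ratios given above.

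Of the autophagy genes, GABARAP and MAP1LC3B encode the ubiquitin-like proteins of the autophagosome membrane. GABARAP had 252 and 229 MITF reads (ratio 1.06, 0.884 to 1.28) and MAP1LC3B had 141 and 116 (ratio 0.962, 0.746 to 1.24). Their SOX10 peaks had 82 and 52 reads (ratio 0.553, 0.383 to 0.793) and 56 and 21 (ratio 0.327, 0.188 to 0.549), the latter the lowest SOX10 ratio of all members. UVRAG, a partner of the lipid kinase VPS34, had 188 and 175 MITF reads (ratio 1.09, 0.881 to 1.34), and WIPI1, which reads the lipid made by that kinase, had 70 and 47 (ratio 0.785, 0.531 to 1.15).

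SQSTM1 encodes the autophagy receptor p62 and was the other gene with no MITF boundary peak in DMSO. Its annotated extent begins 14.5 kb upstream of another RefSeq start. A MITF peak with its summit at −1805 bases from that inner start had 237 reads in DMSO and 150 in FHT-1015 (ratio 0.740, 0.599 to 0.912), at chr5:179818786-179819922. It ranked 97 in the DMSO list, by −log10 p. SOX10 there went from 82 to 29 reads (ratio 0.309, 0.195 to 0.477). H3K27ac over the same stretch had 195 and 189 reads (ratio 0.922, 0.751 to 1.13). Over the inner start itself lay a weaker MITF peak (22 and 19 reads) and a SOX10 peak (52 and 24 reads), both kept.

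Boundary and inner peaks were then compared within the strongest 10% of the DMSO MITF list. Their strength was not matched further within it. The 41 windows held 35 such boundary peaks, and all 35 were retained, meaning overlapped by at least 1 base of a FHT-1015 peak. Their median ratio was 1.04 (lowest 0.601, highest 1.43), and 2 of the 35 were at or below 1/1.5, against 26.4% of such boundary peaks at all genes. These 2 were the peak at the start of ATP6V0C given above and a further boundary peak of ATP6V1B2 (168 and 94 reads, ratio 0.654, 0.503 to 0.847). Of the 8 inner peaks of that strength, 6 were lost or at or below 1/1.5, against 76.8% at all genes. The lost ones were in LAMP2 and CTSZ, and SQSTM1 and SCARB2 held the 2 that were neither. The share among inner peaks was close to that of all genes and the share among boundary peaks was below it, and with 8 inner peaks and 1 library a condition neither was tested. Strength within the 10% was not matched to that of the peaks at all genes.

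**Figure D3:**
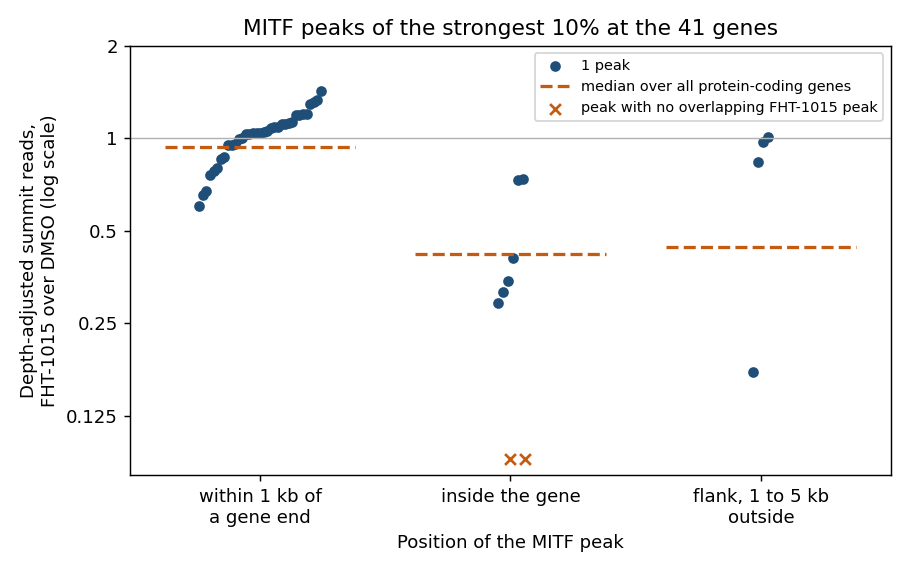
Ratio of depth-adjusted MITF summit reads, FHT-1015 over DMSO (vertical axis, log scale), for MITF peaks in the strongest 10% of the DMSO list at the 41 genes, split by position (horizontal axis). Each circle is 1 peak, crosses are peaks with no overlapping FHT-1015 peak, and dashed lines are the medians over all protein-coding genes (0.939 at boundaries, 0.421 inside genes, 0.444 in flanks). Boundary peaks lie between 0.601 and 1.43, and the inner ones that were retained lie between 0.292 and 0.740.

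The flanks, 1 to 5 kb outside the genes, held 4 MITF peaks of that strength. Of these, 1 was lost or at or below 1/1.5, against 74.3% of such flank peaks at all genes. The windows of these 4 genes also hold other protein-coding genes. The share at all genes leaves out peaks at or inside any gene, so the shares are not of like peaks. The flank peaks of GABARAP (202 and 175 reads, ratio 1.01), MAP1LC3B (142 and 118, ratio 0.971) and NPC1 (91 and 65, ratio 0.835) were kept near their DMSO level. The CTSZ one was the exception given above. TFAP2A showed a like split. At its strongest 10%, 3 of 16 boundary peaks of the 41 genes were lost or at or below 1/1.5, against 20.6% at all genes, and 7 of 11 inner peaks were, against 75.8%. For SMARCA4, 0 of 12 boundary peaks (7.78% at all genes) and 1 of 8 inner peaks (39.4%) met the condition, the latter in NPC1 with 48 and 23 reads. The limit on summit distance was not applied here. From the DMSO summit, the FHT-1015 summit of 1 inner SMARCA4 peak lay at −1671 bases in ATP6V1B2, 805 in SQSTM1 and 593 in SCARB2. For 1 inner TFAP2A peak of SQSTM1 it lay at −1719. Those ratios do not compare 1 position.

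Over peaks of any strength, retention in the 41 windows fell from the gene ends inward for every antibody. Inner peaks were also weaker. For MITF the median −log10 p was 8.38 inside and 79.5 at boundaries, for SOX10 5.56 and 15.4, and for H3K27ac 5.26 and 58.0. In the strongest 10% every boundary peak was retained. So were 8 of 8 inner peaks for SMARCA4, 4 of 4 for SOX10 and 1 of 1 for H3K27ac. For MITF 6 of 8 inner peaks were retained and for TFAP2A 10 of 11. Boundary MITF peaks were retained in 82.3% (51 of 62, Wilson interval 71.0 to 89.8) and inner ones in 38.3% (23 of 60, 27.1 to 51.0), against 66.1% and 34.1% at all genes. For SOX10 the shares were 52.1% of 71 and 12.3% of 65, against 42.4% and 13.1%. For H3K27ac they were 84.5% and 39.4%, against 89.5% and 50.3%. For SMARCA4 they were 91.6% and 59.7%, against 85.0% and 48.2%, and for TFAP2A 94.0% and 64.7%, against 85.8% and 52.7%. When boundary peaks of all genes were weighted to the strengths of the member peaks, 82.1% of MITF peaks and 50.1% of SOX10 peaks were retained, about the same as at the 41 genes.

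**Figure D4:**
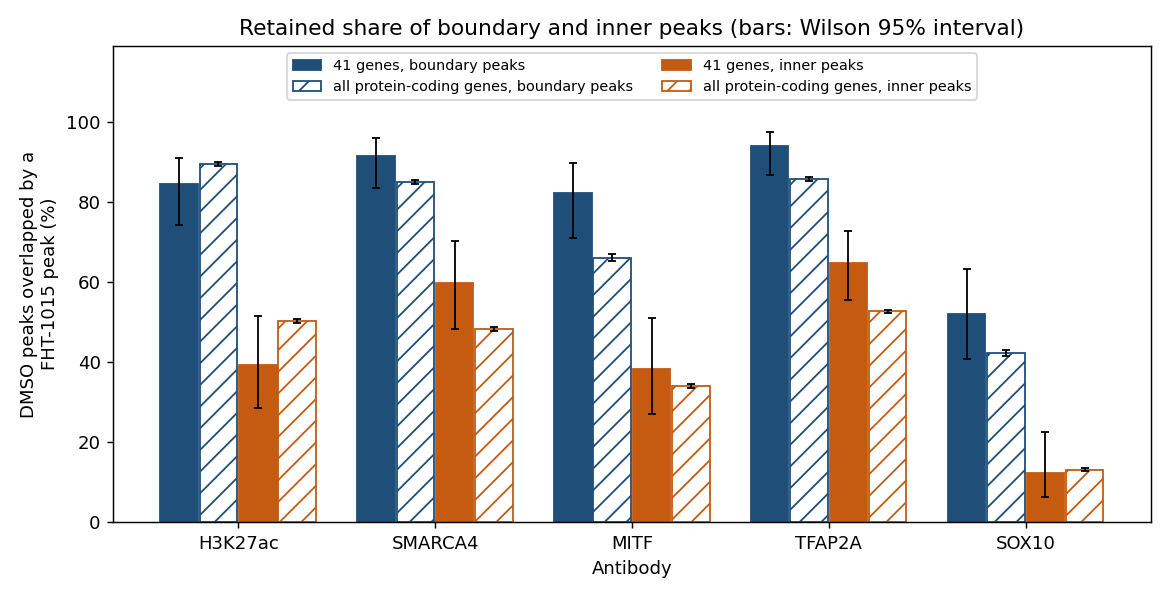
Share of DMSO peaks overlapped by a FHT-1015 peak (vertical axis, percent) for each antibody, with the 41 genes as filled and all protein-coding genes as hatched bars, boundary peaks in blue and inner peaks in orange, and Wilson 95% intervals for counting error. Boundary bars exceed inner bars for every antibody, from 94.0% against 64.7% for TFAP2A to 52.1% against 12.3% for SOX10.

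MITF and SOX10 were both at the ends of 38 of the 41 genes in DMSO, and their summits lay close together. The strongest boundary summits were a median of 31.5 bases apart and within 200 bases at 33 of 38 genes, or 86.8%, against a median of 146 bases and 56.1% over 8947 genes with both. After FHT-1015, 27 of the 38 kept both strongest peaks, or 71.1%, against 53.0% of the 8947. A further 11 kept the strongest MITF peak alone, or 28.9%, against 21.6%. None kept the strongest SOX10 peak alone, against 11.4%. These counts concern the strongest peaks, and ATP6V0C kept 2 of its 3 SOX10 boundary peaks. The 11 were ATP6V0B, ATP6V0C, CTSB, CTSD, CTSF, CTSZ, GAA, NPC1, PSAP, SGSH and WIPI1.

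The 12 SOX10 peaks that were lost, those 11 and SQSTM1, had been weaker in DMSO, with −log10 p from 4.89 to 29.6 (median 17.1), against 6.16 to 81.0 (median 33.0) for the 27 that were kept. The strongest MITF boundary peak had a median ratio of 1.04 over 11 genes with a lost SOX10 peak, and 1.05 over 27 with a kept one. CTSZ (0.262), NPC1 (0.655) and CTSF (0.673) were the low values in the first set, below the lowest of the second, 0.762. At ATP6V0C the strongest MITF and SOX10 summits lay 6446 bases apart, at different ends of the gene. The weaker MITF peak that overlapped its lost SOX10 peak had a ratio of 0.601.

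Over all peaks in the windows, 60.1% of 143 MITF peaks and 32.7% of 165 SOX10 peaks were retained, a gap of 27.4 points. At all genes 22123 of 53934 MITF peaks and 14044 of 65972 SOX10 peaks (21.3%) were retained, so both shares there were lower and MITF was above SOX10 as well. The FHT-1015 SOX10 list held 33268 peaks against 103379 in DMSO, while the MITF lists held 92716 and 89519. When each antibody's lists were cut to equal numbers of their strongest peaks, SOX10 retention was 63.9% and the gap was −3.79 points, so that gap was not seen in lists of equal number. A read ratio needs a FHT-1015 peak, so the 12 genes whose SOX10 peak was lost have none. At the 26 genes with both ratios the median was 1.05 for MITF and 0.516 for SOX10, and the SOX10 ratio was the lower at all 26. All genes with a ratio had medians of 1.02 for MITF and 0.546 for SOX10, and 97 of 7085 SOX10 ratios were above 1. The share of all genes with the lower SOX10 ratio was not counted, so the 26 cannot be set against it.

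By number of peaks, SOX10 had fewer in FHT-1015 at 29 genes, the same at 6 and more at 6. The share of all genes with fewer was not counted. SOX10 peaks in the windows went from 165 to 82 at the 41 genes and from 65972 to 22508 at all genes. The largest falls were at CTSZ (9 to 0), NPC1 (10 to 2), CTSB (8 to 1), UVRAG (9 to 2) and PSAP (6 to 0), followed by a fall of 5 at LAMP2, ATP6V1B2, SQSTM1 and WIPI1. The rises were at LAMP1 and CTSA (1 to 4 each), ATP6V1G1 (1 to 3), NEU1 (2 to 3), ATP6V1D (2 to 3) and CTSS (0 to 1). At LAMP1, CTSA, NEU1, ATP6V1D and ATP6V1G1 the SOX10 reads at the strongest boundary peak were lower in FHT-1015 all the same, with ratios of 0.504, 0.591, 0.614, 0.436 and 0.436, so more peaks did not mean more reads there.

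SMARCA4 itself stayed at the ends of these genes. It had a boundary peak at 37 genes in DMSO (58.2% of all genes) and at 39 in FHT-1015 (63.3%). With a −log10 p limit of 10 these counts were 17 and 33, and the shares of all genes under that limit were not counted. Without the limit, the 2 that gained one were LAMP1 and WIPI1, and such a gain was seen at 20.3% of all genes without a DMSO peak. The median ratio of its reads was 1.49 over 36 genes, against 1.39 over all genes, and 17 of 37 genes reached 1.5, against 35.7%. CTSD was the highest, with 22 and 62 reads (ratio 3.07, 1.86 to 5.24) at summits 274 bases apart, followed by TPP1 with 28 and 63 (ratio 2.45, 1.55 to 3.97) at the far end of the gene, at summits 515 bases apart. NAGLU had 54 and 103 (ratio 2.08, 1.48 to 2.94). ATP6V1A lost its strongest SMARCA4 boundary peak, of 26 reads, the only member to do so, against 11.8% of all genes. GABARAP had the lowest ratio, 0.742, with an interval that includes 1.

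H3K27ac was at the ends of 39 genes in both conditions, against 57.7% of all genes in DMSO and 57.3% in FHT-1015. CTSS and SCARB2 were the 2 without it. SCARB2 had H3K27ac inside the gene, with 1 peak over its inner RefSeq start (46 reads in DMSO and 43 in FHT-1015). Within 1 kb of any RefSeq start, H3K27ac was present at 27 of 27 genes with promoter sequence. That held in both conditions, against 60.7% and 60.6% of all genes with such sequence. No member lost its strongest H3K27ac boundary peak, against 3.58% of all genes. The ratio of reads had a median of 1.34, against 1.36 over all genes, and 9 of 39 genes reached 1.5, against 31.6%. MAP1LC3B was the highest with 65 and 139 reads (ratio 2.04, 1.51 to 2.78), and LAMP1 had 99 and 182 (ratio 1.75, 1.36 to 2.26) and NEU1 114 and 208 (ratio 1.74, 1.38 to 2.20). The interval of CTSZ, given above, lay below 1. CLCN7 had 238 and 205 reads, but under 1 broad peak the DMSO summit lay 3311 bases inside the gene and the FHT-1015 summit at −469 from its start, so these reads do not compare 1 position.

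TFAP2A had a boundary peak at 40 genes in DMSO and 39 in FHT-1015, both against 69.3% of all genes. CTSS had none, and SCARB2 lost a peak of 8 reads, against a loss of the strongest peak at 8.64% of all genes. Its ratio had a median of 1.05, against 1.07, with 5 of 40 lost or at or below 1/1.5 (20.3% of all genes) and 8 at or above 1.5 (10.6%). CTSD was the lowest with 93 and 29 reads (ratio 0.325, 0.207 to 0.498), with the DMSO summit at −654 and the FHT-1015 summit at 100 from the start, so those reads come from different positions. WIPI1 was the highest with 29 and 54 (ratio 1.94, 1.21 to 3.16), and ATP6V1B2 had 68 and 120 (ratio 1.84, 1.36 to 2.52).

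**Figure D5:**
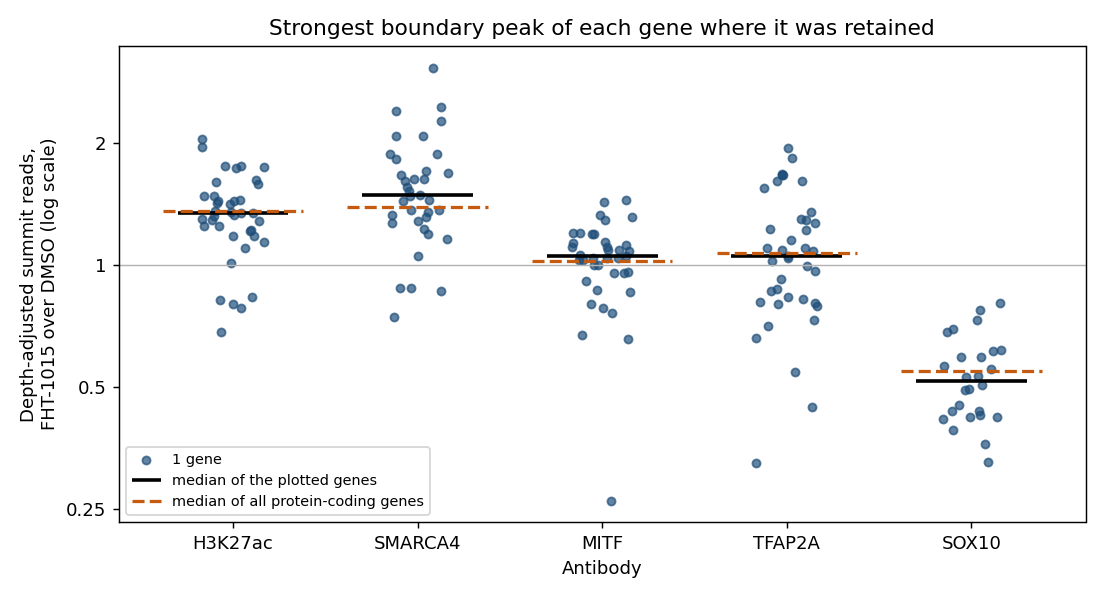
Ratio of depth-adjusted summit reads, FHT-1015 over DMSO (vertical axis, log scale), at the strongest boundary peak of each of the 41 genes where it was retained, by antibody (horizontal axis). Each circle is 1 gene, solid lines are medians of the plotted genes and dashed lines are medians of all protein-coding genes. SOX10 has the lowest median, 0.516, and no circle that reaches 1, MITF and TFAP2A have 1.05 each, H3K27ac has 1.34 and SMARCA4 1.49.

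For each antibody, the single strongest DMSO peak without a counterpart lay away from the gene ends. The strongest MITF peak lost was inside LAMP2 (75 reads), the strongest TFAP2A peak lost was inside PSAP (130 reads), and the strongest SOX10 peak lost was in the flank of CTSZ (64 reads). The strongest lost peaks of SMARCA4 (inside NPC1, 19 reads) and H3K27ac (inside CTSD, 25 reads) were weak. Peaks called in FHT-1015 alone were weak for MITF (strongest 19 reads, in the flank of ATP6V1H), SOX10 (17 reads, inside ATP6V0C) and H3K27ac (31 reads, at an end of WIPI1). For TFAP2A the strongest was in the flank of PSAP (31 reads) and for SMARCA4 at an end of ATP6V1D (32 reads).

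Other genes of the same pathways were listed by name. A MITF boundary peak was present in DMSO at 40 of 46 other lysosomal genes, 5 of 12 other proton pump genes, 34 of 43 other autophagy genes and 18 of 22 genes of lysosomal nutrient signalling, all set against the 47.3% of all genes given above. Their median MITF ratios were 0.966, 0.747, 0.997 and 0.946, with 32, 4, 28 and 15 genes behind them. For 15 pigmentation genes, the best known targets of MITF in this cell type, the peak was present at 13 and the median ratio was 0.721 over 12 genes. Within the strongest 10% of MITF boundary peaks the pigmentation genes had a median of 0.493 over 9 genes (lowest 0.216, highest 1.15), against the 1.05 of the 33 lysosome and autophagy genes (lowest 0.673, highest 1.43), so the ranges overlap.

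The labelled cell type was checked on H3K27ac boundary peaks at marker genes. A peak was present in DMSO at 6 of 7 pigment cell genes (all but DCT) and at 1 of 8 genes of other cell types (APOA1), with the same counts in FHT-1015. Lists held between 33268 (SOX10, FHT-1015) and 142667 (TFAP2A, DMSO) peaks. Peak numbers move with depth and enrichment of the library, and their part in the differences in retained share was not tested beyond the settings given in the closing section.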

How the data were processed

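Peak lists of 10 ChIP-seq libraries were used, 1 per antibody and condition. Replicate samples were not at hand, so no test between conditions was made. Per the submitters' processing notes, reads were handled with BWA, SAMtools, Picard and MACS2 on hg38, with no versions given. In the deposited narrow lists the authors' fold (a ratio of summit pile-up to local background), −log10 p and −log10 q stand beside a deposited score, which equals 10 times −log10 p cut to a whole number, and a summit position. In the deposited broad lists of H3K27ac and SMARCA4 the score follows −log10 q. These values are the authors' and were used to rank and describe peaks within a list.

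The whole number of reads at each summit was recovered from the deposited fold and p-value (100% of peaks in 9 lists at a tolerance of 0.02, 99.28% in the SOX10 FHT-1015 list, whose pile-ups were scaled by 0.8896). Relative depth was the lowest local background of a list divided by its shortest peak. For the SOX10 FHT-1015 list the most frequent recovered background was used instead, and the result was also divided by the scale of 0.8896. The depth of FHT-1015 against DMSO was 1.145 in the SOX10 lists, 0.854 in MITF, 0.960 in TFAP2A, 1.050 in H3K27ac and 0.918 in SMARCA4. The total number of reads is not given in the sources used here. Wilson intervals of shares and exact binomial intervals of read ratios are at 95% and cover counting error only, since PCR copies are not independent molecules. The read comparison, the 1.5-fold limit and its alternatives, the limit on summit distance and the start-site alternative were chosen after the data were seen.

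Gene extents, starts and promoters came from RefSeq tables (GRCh38.p14), matched by symbol for 41 of 41 genes, with strand and promoter for 27. Genes named in the text were the 8 with the strongest MITF boundary peak, those without or with lost MITF or H3K27ac boundary peaks, those with the largest change in SOX10 peak number, and the strongest unshared peak per antibody. The remaining members were given by role. Members and lists were chosen with earlier results of these data known. Overlap and read recovery were tested on simulated data. Python 3.11.15, NumPy 2.4.6, SciPy 1.17.1, pandas 2.3.3 and Matplotlib 3.10.9 were used. Alternatives were other overlap rules, stricter or equal-sized lists, other windows and boundaries, broad lists, and a background weighted by peak strength.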

Additional observations from a re-analysis of the deposited data

How the results depend on the processing

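The share of member peaks retained kept its order of boundary above inner under all alternatives run (broad lists for H3K27ac and SMARCA4 alone), apart from SMARCA4 with a −log10 p limit of 10 on DMSO peaks, where the gap was 0 points. The shares themselves moved with the rule. With a −log10 p limit of 10 applied to both lists, SOX10 kept 15.5%, MITF 68.7%, TFAP2A 60.8%, SMARCA4 88.6% and H3K27ac 92.9%. With that limit on DMSO peaks alone, SOX10 kept 59.2%, MITF 81.9%, TFAP2A 91.7%, SMARCA4 100% and H3K27ac 97.6%. In lists of equal number SOX10 kept 63.9%, TFAP2A 82.1% and H3K27ac 84.7%. By summits within 200 bases TFAP2A kept 65.0%, SMARCA4 46.2% and H3K27ac 47.8%, and with at least 50% of the peak covered SOX10 kept 17.6% and MITF 51.7%. Inner minus boundary, with the limit on both lists, was −18.8 points in SOX10, −68.6 in MITF, −48.5 in TFAP2A, −17.5 in SMARCA4 and −23.5 in H3K27ac. With the limit on DMSO peaks alone it was −18.4 in TFAP2A and −11.8 in H3K27ac. It was −23.3 in H3K27ac in lists of equal number, −16.6 in TFAP2A by summits and −46.4 in SMARCA4 in broad lists. MITF minus SOX10 was 53.2 points with the limit on both lists and −3.79, a reversal, in lists of equal number, where the DMSO list of SOX10 is shortened to the FHT-1015 one. With that limit, 17 genes had a SMARCA4 boundary peak in DMSO and 33 in FHT-1015, and 10 had a SOX10 one there. The shares of all genes under that limit were not counted. The strongest MITF boundary peak was lost or past the limit of reads at 6 genes with 1.25-fold (45.3% of all genes), 4 with background subtracted (40.7%) and 5 without depth adjustment (44.2%). Apart from constructions named, the cause was not tested. Inner strong peaks number 8 for MITF, which limits that contrast. No paired analysis was possible because each group had 1 library and the labels gave no replicate numbers.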
